A study of Homo sapiens with 2 samples.

Results

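AP-1 is a family of transcription factors made of dimers of FOS, JUN, ATF and MAF proteins, which meet through a leucine zipper and touch DNA through a basic region. The genes examined here were FOS, FOSB, FOSL1, FOSL2, JUN, JUNB, JUND, ATF3, BATF and MAFF, selected by a list of symbols, and 9 of these 10 had a probe set named in the annotation of the array. BATF was not analysed here. The 9 genes were set against 13757 named genes other than small RNAs (14812 named genes in all). Total RNA came from the established colon adenocarcinoma cell line HT29. One group was transfected with a control siRNA and the other with an siRNA targeting GATA6, an endodermal transcription factor with zinc fingers. Each group was 1 Affymetrix array, so the differences below have no replicate check, there is no p-value to give, and so few arrays limit the precision. The time of harvest after transfection and which GATA6 duplex was used for these arrays are not given in the labels or the methods, and the control is titled as reanalyzed, with no further detail.

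As background, FOS proteins cannot pair with themselves and need a JUN partner, whereas JUN proteins can pair with one another. FOS and JUN dimers prefer the site TGACTCA, and dimers with ATF or CREB proteins prefer the related site TGACGTCA. FOS, FOSB, JUN, JUNB and ATF3 belong to the immediate early genes, whose mRNA appears shortly after growth factors or stress activate MAP kinases and fades soon after, while JUND is present more constantly. In colon carcinoma cells AP-1 is best known as an endpoint of the RAS and MAP kinase pathway and as a driver of invasion genes.

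The deposited values were read as log2, although no source names the base. They are centred on the median of the 2 arrays in every row, so the value of a gene on 1 array is the mirror image of its value on the other. What remains is a difference, with the levels taken out. Which AP-1 genes HT29 cells express, and which is the most abundant, therefore cannot be read from them, and the colon epithelial identity of the cells cannot be checked by level. GATA6 itself, the target of the siRNA, had values of 0.58 with control siRNA and -0.58 with GATA6 siRNA, a difference of -1.15 (2.22-fold lower). Of 11 listed colon epithelial markers 9 were measured, and 3 of them, KRT20, KRT19 and EPCAM, were higher by over 1.4-fold (2 with quantile normalization and 4 when scaled on reference genes). Over all genes 3.55% were higher by this size (2.99% and 6.51% under those scalings). Of 16 listed markers of fibroblasts, endothelium, blood and muscle 5 were measured and 0 passed that size, although LYZ did under 2 of the other scalings described further on. Their part in the AP-1 values was not tested.

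Silencing of GATA6 was accompanied by differences in both directions among the AP-1 genes. FOSL1 was 1.53-fold lower with GATA6 siRNA and was the only member to differ by over 1.4-fold, or 0.49 in log2 units. The methods of the study used this size for decreases, and here it was applied to both directions. JUNB was 1.37-fold higher and JUND 1.25-fold higher, whereas JUN was 1.17-fold lower and FOS 1.13-fold lower. The other 4 genes, FOSB, FOSL2, ATF3 and MAFF, lay between 1.06-fold and 1.13-fold higher. By this size 1 of 9 members was lower, against 2.61% of all 13757 genes, and 0 of 9 were higher, against 3.55%. The median difference of the members was 0.13 and that of all genes 0, with 6 of 9 members and 48.3% of all genes above 0. With 9 genes, 1 past the size is not read as a result about the family. Whether a gene changed in every cell or in a share of the cells cannot be told apart in bulk RNA.

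**Figure D1:**
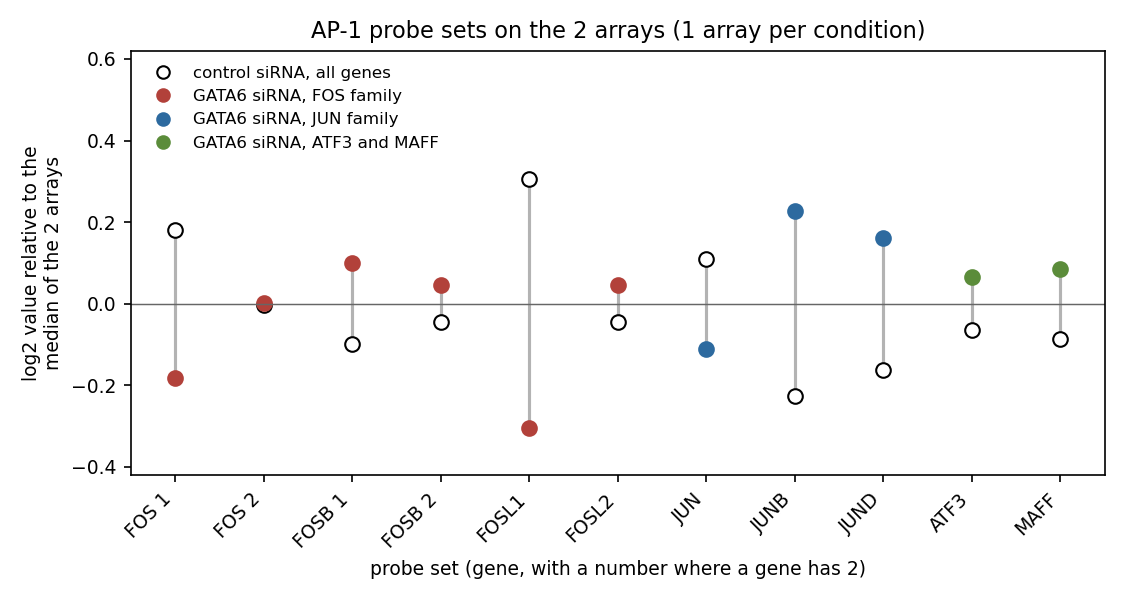
Log2 values of the 11 AP-1 probe sets (horizontal axis) relative to the median of the 2 arrays (vertical axis), with open circles for control siRNA, filled circles for GATA6 siRNA and a line joining the values of 1 probe set. Each circle is 1 array, with no error bar. FOSL1 spans the largest distance, from 0.31 to -0.31, and JUNB the next, from -0.23 to 0.23, in the opposite direction.

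The FOS family was examined first. FOSL1, which encodes FRA-1, a FOS relative without the strong activation domain of FOS and linked to invasion in epithelial tumors, had a value of 0.31 on the control array and -0.31 on the GATA6 siRNA array. The difference of -0.61 corresponds to 65.5% of the control value. FOSL1 ranked 194th from the bottom among the 13757 genes. FOSL1 was measured by 1 probe set, so this value has no second measurement.

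FOS, the founding member, had values of 0.09 with control siRNA and -0.09 with GATA6 siRNA as the mean of 2 probe sets, a difference of -0.18. The probe sets of FOS did not give the same picture. One had a difference of -0.36 (1.29-fold lower, values 0.18 and -0.18), and the other of 0.0046, with both arrays at 0.0023 or less from 0. FOSB, a FOS relative of the same early response, was also the mean of 2 probe sets, with differences of 0.20 and 0.09 and a mean of 0.14 (1.11-fold higher). FOSL2, which encodes FRA-2, was 0.05 above the median of the arrays with GATA6 siRNA and 0.05 below it with control siRNA, a difference of 0.09. FOSL1 was the only FOS gene past 1.4-fold, and the 4 genes of the family spanned 0.76 on the log2 scale.

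The disagreement within FOS could be set against the order of the probe sets on the array. Neighboring identifiers on this array mostly belong to genes of the same strand. Among 9330 protein-coding genes with 1 probe set and a known strand, 98.8% had more neighbors in identifier order on the strand of the gene than on the opposite strand, when 10 named neighbors on each side were counted. The FOS probe set with the difference of -0.36 had 18 of 20 neighbors on the strand of FOS. The FOS probe set near 0 had 2 of 20, so it sat among probe sets for genes on the opposite strand. The same held for FOSB, where the probe set with the difference of 0.20 had 19 of 20 neighbors on its own strand and the probe set with 0.09 had 1 of 20. Taking only the probe sets with own-strand neighbors, FOS had a difference of -0.36 and FOSB of 0.20, and neither reached 1.4-fold. What the other probe sets of these genes measure was not tested. For FOSL1 no strand was given in the tables used, and the remaining 6 members had 18 to 20 of 20 neighbors on their own strand.

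None of the 3 JUN genes passed 1.4-fold, and their differences had both signs. JUN, the partner that lends AP-1 most of its activating strength, had values of 0.11 with control siRNA and -0.11 with GATA6 siRNA, a difference of -0.22 (85.8% of the control value). JUNB, which can restrain JUN and is itself induced as an early gene, had -0.23 with control siRNA and 0.23 with GATA6 siRNA. Its difference of 0.45 stayed just under the size of 0.49 and placed it 578th from the top, with 4.19% of genes higher. JUND, the most constant of the JUN proteins and a partner of the tumor suppressor menin, had -0.16 and 0.16, a difference of 0.32, with 7.60% of genes higher. JUN and JUNB were 0.67 apart on the log2 scale. FOSL1 and JUNB, the lowest and highest members, were 1.06 apart (2.09-fold).

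JUN-DT, the divergent non-coding transcript that starts beside JUN, had a difference of 0.05. Its value was close to 0, next to the difference of -0.22 of JUN.

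ATF3 and MAFF have separate roles. ATF3, a stress-induced factor that can pair with JUN proteins and acts as a repressor when paired with itself, had values of -0.06 with control siRNA and 0.06 with GATA6 siRNA (difference 0.13, 1.09-fold higher). MAFF, a small MAF protein without an activation domain that pairs with FOS and with NRF2, had -0.09 and 0.09 (difference 0.17, 1.13-fold higher). Both values lay close to 0, and 38.5% and 30.5% of all genes lay farther from 0.

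**Figure D2:**
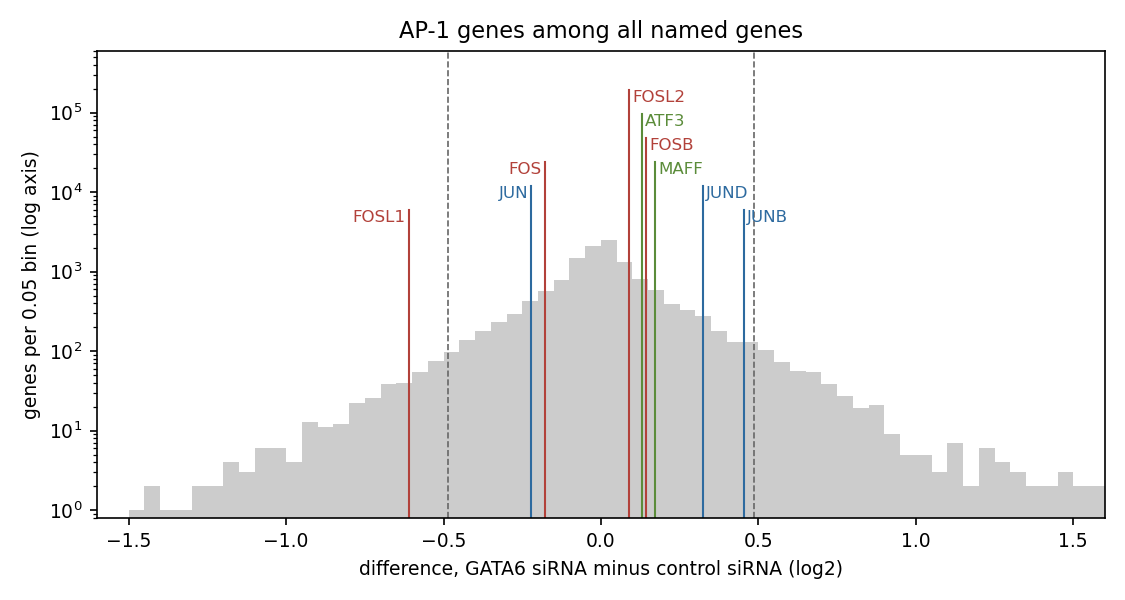
Differences of all 13757 named genes, as log2 of GATA6 siRNA minus log2 of control siRNA (horizontal axis, drawn out to 1.6 on either side, with 14 genes beyond), as genes per bin of 0.05 on a logarithmic vertical axis. Colored lines mark the 9 AP-1 genes (red FOS family, blue JUN family, green ATF3 and MAFF) at heights that carry no value, and dashed lines mark 1.4-fold. FOSL1 lies outside the dashed lines and JUNB just inside.

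The arrays held no replicates, and the nearest substitute was the spread between probe sets of the same gene. Over 470 genes with 2 probe sets this SD was 0.19 on the log2 scale, and over the 54 genes whose probe sets both had own-strand neighbors it was 0.15. FOSL1, JUNB, JUND and JUN differed by more than either SD. The means of FOSB, FOSL2 and ATF3 differed by less than both, and those of FOS and MAFF lay between them. With the own-strand probe sets alone, FOS (-0.36) and FOSB (0.20) also exceeded both. This spread mixes probe sets that may not measure the same transcript and is not the spread between cultures, which was not measured.

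To show what the sequence next to these genes holds, promoter windows of 300 bases (250 before and 50 after the start) were taken from RefSeq, assembly GRCh38.p14. Windows were found for 8 of the 9 measured members. FOSL1 was not among them. ATF3 and MAFF had 2 windows each. The windows were searched on both strands for TGACTCA, the FOS and JUN site, for TGACGTCA, the ATF and CREB site, and for AGATAA, the GATA motif that the study examined in the REG4 promoter. None of these motifs contains another, and TGACTCA on the opposite strand reads TGAGTCA. The 4 windows with a match are shown because motifs of these kinds are known sites of these factors and of GATA proteins. Each stretch is written 5′ to 3′ on the strand of the gene with the motif in capitals.
JUN, chr1:58784062-58784087, minus strand, AGATAA starting 30 bases before the start site: gactggtagcAGATAAgtgttgagct
JUND, chr19:18281805-18281832, minus strand, TGACGTCA starting 200 bases before the start site: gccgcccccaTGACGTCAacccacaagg
MAFF, chr22:38201930-38201957, plus strand, TGACGTCA starting 54 bases before the start site: gccgggtcggTGACGTCAccgcatgact
FOSL2, chr2:28392852-28392878, plus strand, TGACTCA starting at base 5 after the start site: gccattgtagTGACTCAtctcgggcag

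JUN was thus the only member with a match to AGATAA in these windows, and its difference was -0.22. Of all 35116 promoter windows of this length, 10.3% held AGATAA on either strand, 4.95% TGACTCA and 1.85% TGACGTCA. JUND (0.32) and MAFF (0.17) held the CREB type of site and FOSL2 (0.09) the FOS and JUN type. FOS, FOSB, JUNB and ATF3 held none of the 3 motifs in these windows. With the variants AGATAG, then TGATAA and also TGATAG searched beside AGATAA, 25.0% of all windows and still only that of JUN among the members had a match. A match is a string of letters, and binding at these sites was not measured here.

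Other genes with basic leucine zippers were examined next, since some of them share partners with AP-1. Of 43 listed genes 28 were measured, of which 2 were lower and 1 was higher by over 1.4-fold, and the median was 0.03. Over all genes 2.61% were lower and 3.55% higher. NFE2L3, a CNC factor related to NRF2, was 1.68-fold lower (difference -0.75), and CREBZF, an atypical CREB/ATF relative, was 1.48-fold lower (-0.57). DBP, a factor of the circadian clock output, was 1.62-fold higher (0.69). When scaled on ribosomal protein genes or on reference genes, as described further on, 1 was lower and 4 were higher. Over all genes 1.48% and 1.32% were then lower, and 5.89% and 6.51% higher. CREBZF dropped out, and XBP1 (0.56 and 0.59), CREB3L2 (0.50 and 0.52) and CREB1 (0.49 and 0.51) passed.

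Kinases upstream of AP-1 carry growth factor and stress signals to FOS and JUN, and 25 of 39 listed were measured. Of these 3 were higher and 1 was lower by over 1.4-fold, against 3.55% and 2.61% of all genes, and the median was 0.13. When scaled on ribosomal protein genes 4 were higher and 0 lower, against 5.89% and 1.48%. When scaled on reference genes 5 were higher and 0 lower, against 6.51% and 1.32%. MAPK6, which encodes the atypical kinase ERK3, was 1.73-fold higher (0.79) and MAP3K2, an upstream kinase of the JNK and ERK5 branches, 1.65-fold higher (0.72). Of the kinases that activate p38, MAP2K6 had a difference of 0.49, just past the size, and MAP2K3 of -0.56 (1.47-fold lower). These are mRNA values, and the activity of the kinases was not measured. FOS is switched on through the serum response element, and 4 of 7 listed factors of that element were measured. ELK1, ELK3 and ELK4 were not among them. MRTFB, a coactivator of SRF, was 1.46-fold higher (0.55) as the only one past 1.4-fold. SRF itself differed by -0.06 (0.05 when scaled on ribosomal protein genes and 0.08 when scaled on reference genes). The part of these factors in the FOS value was not tested.

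Immediate early genes outside the AP-1 family respond to the same signals. Of 33 listed 21 were measured, and 17 lay above 0 and 3 below, against 48.3% of all genes above 0. By over 1.4-fold 3 were higher and 1 was lower, against 3.55% and 2.61% of all genes, and the median was 0.19. When scaled on reference genes 4 were higher, against 6.51%. MYC, which promotes proliferation, was 2.67-fold lower (-1.42), the farthest of the list. RHOB, an inducible small GTPase, was 1.55-fold higher (0.63), and DUSP1 and DUSP6, phosphatases that switch off MAP kinases, were 1.52-fold (0.60) and 1.42-fold higher (0.50). EGR1, the early zinc finger factor often induced together with FOS, had a difference of 0.19 as the mean of 2 probe sets. FOS had -0.18, also as the mean of 2 probe sets, and -0.36 with its own-strand probe set alone. For EGR1 only the mean is given. With quantile normalization DUSP6 (0.47) and MAP2K6 (0.45) no longer passed 1.4-fold.

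Genes with described AP-1 sites or dependence on AP-1 were set beside the factors. Of 55 listed 34 were measured, of which 4 were higher and 1 was lower by over 1.4-fold, against 3.55% and 2.61% of all genes. When scaled on ribosomal protein genes 5 were higher and 1 lower, against 5.89% and 1.48%. When scaled on reference genes 6 were higher and 0 lower, against 6.51% and 1.32%. The median was 0.05, or 0.16 when scaled on ribosomal protein genes. ANXA1, an annexin, was 2.15-fold higher (1.10), TIMP1, an inhibitor of matrix metalloproteinases, 1.66-fold higher (0.73) and EZR, which encodes ezrin, 1.54-fold higher (0.62). CD44, the hyaluronan receptor, was 1.53-fold lower (-0.61), and when scaled on reference genes it was -0.48 and no longer passed 1.4-fold. The matrix metalloproteinase genes MMP1 (0.10) and MMP13 (0.03), well known AP-1 targets, were near 0 and MMP10 was listed at 0 on both arrays, and whether HT29 cells express them is not known from these values. Among 8 of 13 measured regulators of AP-1 proteins, SENP1, a SUMO protease, was 1.44-fold lower (-0.52) as the only one past the size. MEN1, which encodes menin, the partner of JUND, had a difference of -0.48 and JUND itself of 0.32. With quantile normalization MEN1 (-0.52) passed as well, so that 2 regulators were lower, against 3.1% of all genes. When scaled on ribosomal protein genes or on reference genes, 0 were lower and 2 were higher, the deubiquitinase gene USP28 (0.51 and 0.53) and the coactivator gene NCOA1 (0.51 and 0.54).

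**Figure D3:**
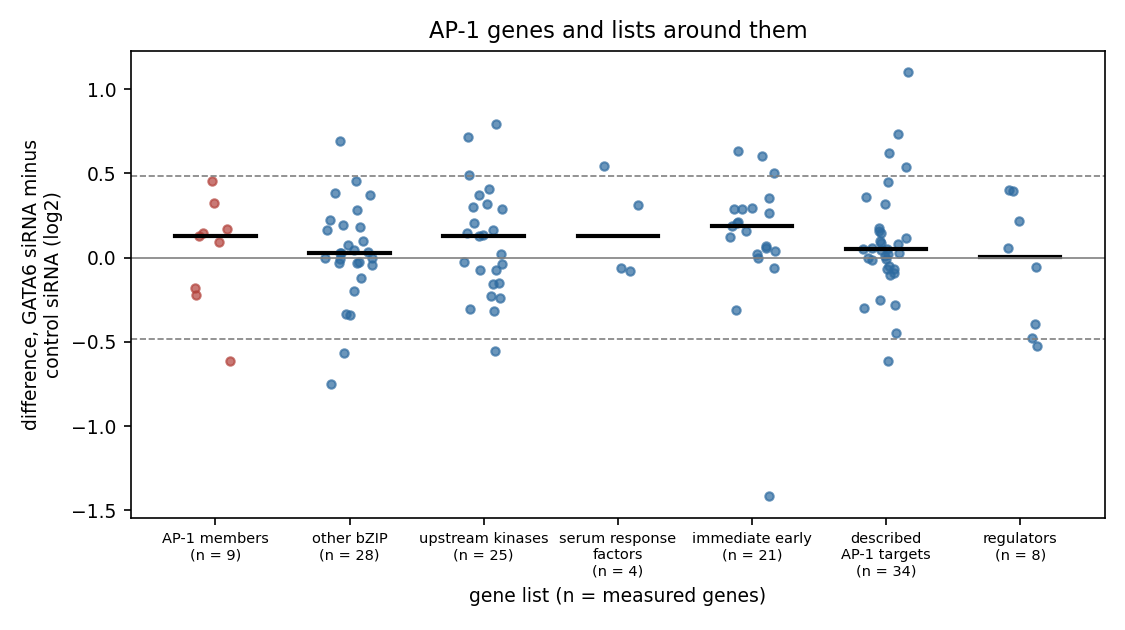
Log2 differences between the GATA6 siRNA and control siRNA arrays (vertical axis), of the 9 AP-1 genes and of 6 lists around them (horizontal axis, n is the number of measured genes). Each point is 1 gene spread sideways at random, thick bars are medians and dashed lines mark 1.4-fold. The AP-1 genes (median 0.13) lie within the range of the immediate early genes (median 0.19) and of the described targets (median 0.05). In these lists only MYC (-1.42) and CD44 (-0.61) lie as low as FOSL1 (-0.61).

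Because 1 array per group leaves the scaling between arrays unchecked, the members were also scaled on other genes. Setting 53 ribosomal protein genes to a median of 0 added 0.11 to every difference, and setting 6 reference genes to 0 added 0.13. The 6 reference genes spread widely, from TBP at -0.84 (1.79-fold lower) to B2M at 0.34, so the shift of 0.13 is uncertain. FOSL1 had differences of -0.50 (ribosomal protein genes) and -0.48 (reference genes), and with the reference genes it no longer reached 1.4-fold. JUNB had 0.57 and 0.59 and passed 1.4-fold under both. JUND had 0.44 and 0.46, JUN -0.11 and -0.09, and FOS -0.07 and -0.04. The median of the members moved from 0.13 to 0.24 and 0.26, which is the added constant. Of the genes around the family, CREBZF (-0.45 and -0.43), MAP2K3 (-0.44 and -0.42) and SENP1 (-0.41 and -0.39) fell short of 1.4-fold under both. These scalings also changed the background. On the ribosomal scale 203 of all genes were lower and 810 higher by over 1.4-fold, and on the reference gene scale 181 and 895, against 359 and 489 as deposited. The sign of every measured member stayed the same under these scalings and under quantile normalization. Quantile normalization was run on the deposited centred and mirrored values, not on array intensities, and keeps the order of probe sets. The shifts of 0.11 and 0.13 are constants, so the unchanged signs are no check on the single genes.

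**Figure D4:**
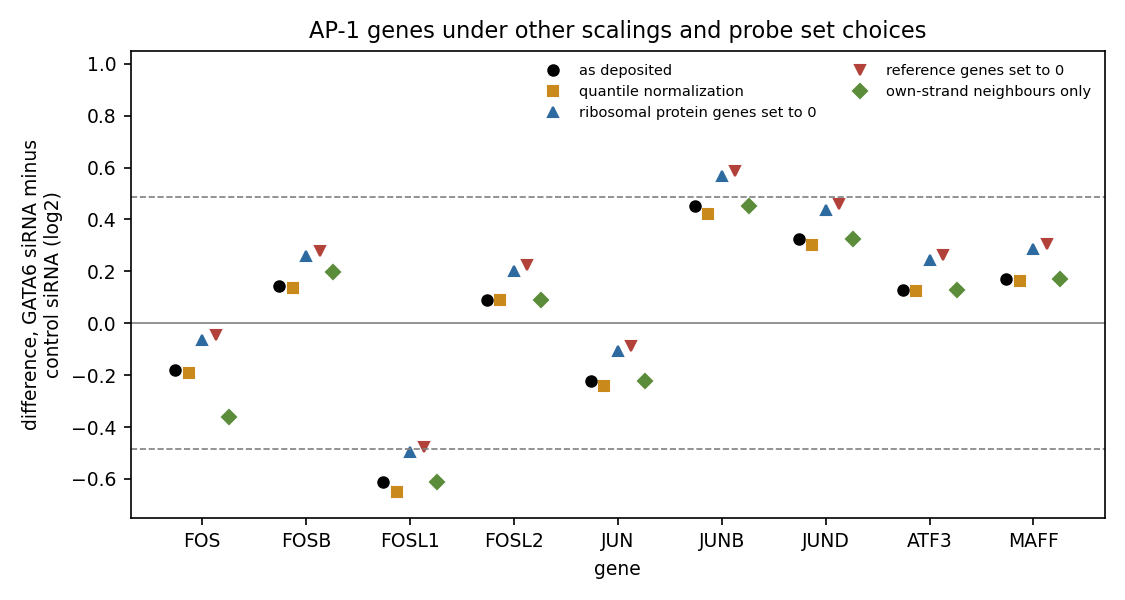
Log2 differences between the GATA6 siRNA and control siRNA arrays (vertical axis), of the 9 AP-1 genes (horizontal axis) under the deposited scaling, quantile normalization, ribosomal protein genes or reference genes set to 0, and with only the probe sets that have own-strand neighbors. Dashed lines mark 1.4-fold. FOSL1 (-0.61 as deposited) and JUNB (0.45) cross the line under at least 1 scaling, and FOS moves from -0.18 to -0.36 with the choice of probe set. For FOSL1 no strand was given, so its probe set was kept in the last setting without being filtered.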

How the data were processed

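HT29 RNA from 1 control siRNA and 1 GATA6 siRNA culture was prepared with TRIsure (per the labels), labelled with the GeneChip WT PLUS kit and hybridized to Affymetrix Human Gene 2.0 ST arrays. The authors evaluated the arrays in GeneSpring and deposited 1 table of log2 values of 44629 probe sets (the base is not stated and was taken as 2). The values of a row cancel within 1e-06. Summarization, normalization and genome build are not given in the labels or methods. Of the 44629 probe sets 1865 were at 0 on both arrays, and why was not tested. If a floor was applied, differences of weakly expressed genes would be too small.

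The platform annotation gave 1 symbol to 15835 probe sets, and probe sets of the same symbol were averaged. Differences are GATA6 siRNA minus control siRNA, counted past 1.4-fold, with Python 3.11.15 and pandas 2.3.3. Calls past 1.4-fold were tested on shuffled differences of these arrays with known shifts added, and recovery was required only for the largest shift. The motif search and the strand counts were not tested in this way. No test between groups is possible with 1 array per group. The members and gene lists were chosen with earlier results of these data known. Of each list, up to 4 genes past 1.4-fold with the largest differences are named. SRF, EGR1, MEN1, JUN-DT, XBP1, CREB3L2, CREB1, USP28, NCOA1, KRT20, KRT19, EPCAM, LYZ, B2M, MMP1, MMP10 and MMP13 were named after their values were seen. The strands came from RefSeq (GRCh38.p14). Scaling, probe set and size alternatives are given in the closing section.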

Additional observations from a re-analysis of the deposited data

How the results depend on the processing

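Most alternatives could move a single member little or not at all, since 7 members have 1 probe set and the scalings on other genes add a constant. In log2 units FOS moved most, from -0.18 to -0.36 with own-strand probe sets, and it was -0.04 with the reference genes. The counts past 1.4-fold moved as well. With the ribosomal protein genes set to 0, 1 member (JUNB) was higher, against 5.89% of all genes. As deposited 0 were higher, against 3.55%. With the reference genes set to 0, 0 members were lower, against 1.32%, and 1 (JUNB) was higher, against 6.51%. At a 1.2-fold size 2 members (JUNB and JUND) were higher, against 10.2% of all genes, and 1 was lower, against 8.65%. At a 2-fold size 0 were lower, against 0.24%. These counts follow from the size itself. The choice of probe sets by the strand of their neighbors was made after seeing the data. No paired analysis was possible because only 1 array represented each group, and no replicate could be left out. Signal over background is unknown.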

Other observations

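The pattern of strands seen for FOS and FOSB was also present in other genes. Of 470 genes with 2 probe sets, 289 had 1 probe set among neighbors of its own strand and 1 among neighbors of the opposite strand, whereas 54 had both among neighbors of the own strand. The SD between the probe sets of a gene was 0.19 in the 289 genes and 0.15 in the 54 genes. Across genes, which are not independent replicates, the differences of the 2 probe sets had a Pearson correlation of 0.13 in the first set and 0.42 in the second. Within the 289 genes, 17 own-strand and 6 opposite-strand probe sets passed 1.4-fold. What the opposite-strand probe sets hybridize to was not tested.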
